A study of Mus musculus with 54 samples.

Results

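Collagen chain genes were followed in mouse 3T3-L1 preadipocytes, an established mouse line of fibroblast shape that can be made to form fat cells in a dish, with and without the limonoid prieurianin. The members were all probes whose platform gene symbol names a collagen alpha chain, that is Col, a type number, the letter a and a chain number. They came to 57 of the array's 29922 probes and to 38 of its 16637 named genes. A gene counted as measured when the mean of its brightest probe over all arrays, on the log2(intensity + 16) scale, lay above the lower quartile of gene probes, 6.07. That held for 29 collagen genes with 41 measured probes, out of 12792 measured genes in all. Col9a2 (6.13) lay just above that bound and Col22a1 (5.99) just below it.

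The cells were sampled at 18 times between 0 and 288 h in 3 arms: 2 µM prieurianin, 0.5% DMSO, and an untreated control that went through its usual differentiation. All arms used the same cell line from a single supplier, with no genetic change stated, and each arm had 1 array per time, 54 arrays in all. The labels do not say how much DMSO the prieurianin cultures held, when the differentiation stimulus was given in any arm, or whether each time was a separate culture. Times within a window therefore stand in for replicates: 0 to 3 h (6 arrays an arm, 5 without 0 h), 5 to 48 h (7 arrays) and 96 to 288 h (5 arrays). For changes over the course the p-values measure the spread between these times. For differences between arms, which were matched by time, they measure how far those differences varied between times. Technical spread may enter each of them.

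Collagens are built from alpha chains that wind into a rope-like helix. Fibrillar chains form the cross-striated fibres that carry tension in connective tissue, and fibroblast-like preadipocytes make them. Type IV chains form the sheet-like network of basement membranes, the layer that surrounds each mature fat cell. Multiplexins, type XV and type XVIII, sit in or beside basement membranes, and type VI chains form beaded filaments between the layers. The other classes are the short chain network collagens, the FACIT collagens, which coat fibrils, and the transmembrane collagens.

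Of the classes listed, 10 of 11 fibrillar genes were measured (Col24a1 was too dim), 4 of 6 basement membrane network genes (not Col4a3 or Col4a4) and both multiplexins. Type VI had probes for 2 genes under these symbols, Col6a2 and Col6a3, and both were measured. Among short chain genes Col8a1 was measured, whereas Col8a2 and Col10a1 were too dim. Of 9 FACIT genes on the array 5 were measured, while Col9a1, Col12a1, Col19a1 and Col22a1 were not. All 4 transmembrane genes and Col7a1, the anchoring fibril chain, were measured. A further 3 probes carry older names of Col26a1, Col6a6 and Col6a4. They were dim, and they fall outside the symbol rule.

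Col4a1 and Col4a2 encode the chains of the most widespread type IV network and lie head to head on chromosome 8. They are shown because both rose over the course in every arm and because both were among the 4 collagens higher with prieurianin at 5 to 48 h. In RefSeq (build GRCm38.p6) their starts are 21 bp apart, Col4a1 at 11312826 and Col4a2 at 11312805. The transcripts therefore overlap at their 5′ ends, with no gap between them. The windows below run from 250 bases before to 50 bases after each start, Col4a1 at chr8:11312777-11313076 on the minus strand and Col4a2 at chr8:11312555-11312854 on the plus strand. Each is printed 5′ to 3′ on its own strand. The capitals mark the 78 bases that both windows contain, chr8:11312777-11312854.
Col4a1: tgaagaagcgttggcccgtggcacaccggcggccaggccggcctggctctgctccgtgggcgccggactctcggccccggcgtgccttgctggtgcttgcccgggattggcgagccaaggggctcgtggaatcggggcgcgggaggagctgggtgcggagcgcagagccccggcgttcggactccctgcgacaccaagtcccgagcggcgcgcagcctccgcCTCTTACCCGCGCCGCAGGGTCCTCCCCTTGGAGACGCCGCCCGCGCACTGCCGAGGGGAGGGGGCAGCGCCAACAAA
Col4a2: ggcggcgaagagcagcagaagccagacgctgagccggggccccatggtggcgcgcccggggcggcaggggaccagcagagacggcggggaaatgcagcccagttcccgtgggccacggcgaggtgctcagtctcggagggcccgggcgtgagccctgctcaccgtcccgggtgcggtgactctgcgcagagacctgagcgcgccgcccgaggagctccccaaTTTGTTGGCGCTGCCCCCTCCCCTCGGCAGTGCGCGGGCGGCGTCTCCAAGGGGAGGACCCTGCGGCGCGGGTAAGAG
The letters CCAAT and GGGCGG, searched on both strands, occur in both windows, and TATAAA in neither. CCAAT stood in 37.41% and GGGCGG in 35.66% of all 32851 RefSeq windows of this length. Among the 26 windows of measured collagens, 11 held CCAAT, 19 held GGGCGG and 4 held TATAAA, against 13.62% of all windows for TATAAA. A window was given for 24 of the 29 measured genes. Those of Col1a1 and Col5a2 were not among them. The other type IV pair, Col4a5 and Col4a6, lies head to head on chromosome X with starts 1343 bp apart, so that the windows do not overlap (842 bp lie between them).

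A single array stood apart. The prieurianin array at 192 h had its closest match in the 144 h array of the untreated arm (r = 0.971, across genes) and less with the other 4 late prieurianin arrays (0.912 to 0.955), which correlated with each other at 0.955 to 0.986. The summed intensity of 8 adipocyte markers on it was 281074, against 94265, 106785, 54418 and 56574 on the prieurianin arrays at 96, 144, 240 and 288 h. Late results are therefore given with all times and also without 192 h in any arm. Before scaling, the median intensity of an array lay between 88 and 313, and 93 to 176 probes per array were saturated. The collagen probes that reached the scanner's ceiling were those of Col3a1 (24 arrays), Col6a3 (7 arrays), Col1a2 (5 arrays) and Col4a2 (2 arrays). Their values at that ceiling, mostly about 15.999 on the log2 scale, are lower bounds, and none was saturated on every array of an arm and window. All 8 adipocyte and all 8 preadipocyte markers were measured. Markers of other cells were partly below the filter, among them Adgre1 and Ptprc of macrophages, Cdh5, Kdr and Tek of endothelium and Epcam and Cdh1 of epithelium.

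The first question was how the collagens moved over the course in each arm. Type VI and the type IV pair were higher at 96 to 288 h than at 0 to 3 h in all arms, while Col18a1 rose and Col1a1 and Col8a1 fell in DMSO and in untreated cells. In prieurianin 5 collagens rose and 1 fell, 20.7% of the 29, and limma called 30.4% of all measured genes in this comparison (adjusted p under 0.05, Benjamini-Hochberg over all genes), 15.3% as higher and 15% as lower. In DMSO 7 rose and 5 fell, 41.4%, beside a background of 32.6% (16.5% higher and 16.1% lower). In untreated cells 6 rose and 6 fell, also 41.4%, beside a background of 34.3% (17% higher and 17.3% lower). Without 192 h the counts were 6 and 1 in prieurianin (background 28.4%), 7 and 6 in DMSO (32.8%), and 6 and 6 in untreated cells (31.6%). With no scaling they were 5 and 2 in prieurianin and 5 and 6 in DMSO, and with median centring 7 and 3 in DMSO.

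Of the basement membrane network genes, Col4a1 and Col4a2 rose in every arm. Col4a1 read up to 15.15 at 0 to 3 h in the untreated arm (median 14.29, with the other 5 arrays at or below 14.58), 14.68 to 15.27 at 5 to 48 h (median 14.87) and 14.76 to 15.61 at 96 to 288 h (median 15.11). At 3 h Col4a1 already read 15.02 in prieurianin, 14.83 in DMSO and 15.15 in untreated cells. Its values at 288 h were lower than these, 14.93, 14.70 and 14.76 in the same order. Its late increase over 0 to 3 h was 0.91 ± 0.21 log2 in prieurianin (adjusted p = 0.000728), 0.71 ± 0.21 in DMSO (0.00648) and 0.81 ± 0.21 in untreated cells (0.00182), where ± is the standard error of the limma fit. Col4a2 rose by 0.89 ± 0.14 in prieurianin, 0.72 ± 0.14 in DMSO and 0.74 ± 0.14 in untreated cells, with adjusted p between 3.59e-06 and 8.69e-05. Both rose in every arm also without 192 h, by 0.83 or more on the log2 scale in prieurianin. Col4a5, a chain of the more restricted type IV networks, went the other way. Its prieurianin change, -0.44 ± 0.21, missed the threshold (adjusted p = 0.11), while it fell by 0.58 ± 0.21 in DMSO (0.0289) and by 0.80 ± 0.21 in untreated cells (0.00236). The DMSO call was lost without 0.25 h (-0.53), 96 h (-0.45) or 144 h (-0.48). Col4a6, its head-to-head partner, was not called in any arm. The 4 class members had a median late change of 0.33 in prieurianin, 0.39 in DMSO and 0.37 in untreated cells, against 0.03, -0.02 and 0.01 for all genes of those arms.

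Type VI showed the largest late increases of any class. Col6a3, whose C-terminal fragment is known as endotrophin, read 14.21 to 14.81 at 0 to 3 h in the untreated arm, 14.46 to 15.54 at 5 to 48 h and 15.96 to 15.999 at 96 to 288 h, where 4 of the 5 arrays were at the ceiling. The late increase was 1.35 ± 0.16 log2 in prieurianin (adjusted p = 1.74e-08), 1.59 ± 0.16 in DMSO (1.2e-10) and 1.46 ± 0.16 in untreated cells (1.05e-09). Over the course 1 prieurianin, 2 DMSO and 4 untreated arrays were at the ceiling for Col6a3. All of these were late, so that the increases are lower bounds in every arm. Col6a2, another chain of the same filament, rose by 0.92 ± 0.26 in prieurianin (0.00548), 1.08 ± 0.26 in DMSO (0.000991) and 1.36 ± 0.26 in untreated cells (4.26e-05). The prieurianin increase of Col6a2 was 0.76 without 192 h. A dimmer Col6a3 probe gave 1.15 in prieurianin, 1.78 in DMSO and 1.79 in untreated cells, and the dimmest 0.10, 0.21 and 0.11.

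Among multiplexins, Col18a1, a basement membrane proteoglycan from which endostatin is cut, had a late change of 0.34 ± 0.16 in prieurianin, which missed the threshold (adjusted p = 0.0954), although without 192 h it was 0.44 and passed (0.0453). It rose by 0.87 ± 0.16 in DMSO (2e-05) and by 0.80 ± 0.16 in untreated cells (6.05e-05). Col15a1, which bridges basement membranes and fibrils, was not called: 0.21 ± 0.22 in prieurianin, 0.51 ± 0.22 in DMSO and 0.50 ± 0.22 in untreated cells.

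Fibrillar genes did not move as a class. Col1a1, the main chain of type I fibrils, had a late change of 0.22 ± 0.30 log2 in prieurianin (adjusted p = 0.63), and 0.45 without 192 h. It fell by 0.82 ± 0.30 in DMSO (0.0291) and by 0.96 ± 0.30 in untreated cells (0.00906). The lowest late value was at 144 h in both of these arms. At 288 h Col1a1 read 13.97 in DMSO and 14.22 in untreated cells, beside means of 13.76 and 14.15 at 0 to 3 h. The DMSO call was lost on leaving out 96 h (-0.63), 144 h (-0.53), 0.5 h (-0.75) or 1 h (-0.79). Col5a3, a minor type V chain, rose in all arms, by 0.77 ± 0.15 in prieurianin (0.000125), 0.50 ± 0.15 in DMSO (0.0101) and 0.64 ± 0.15 in untreated cells (0.000942). With no scaling Col5a3 was 0.38 in DMSO (0.190) and 0.47 in untreated cells (0.0880). Col11a2 rose in DMSO (0.38 ± 0.12), but with no scaling it was 0.21 and did not pass (0.423), and it had 0.18 ± 0.12 in prieurianin and in untreated cells. Col1a2, Col3a1, Col5a1 and Col5a2 passed in no arm at 96 to 288 h. The median of the 10 fibrillar genes was 0.13 in prieurianin, -0.13 in DMSO and -0.20 in untreated cells.

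The largest fall was that of Col8a1, a short chain collagen of vessel walls and eye membranes. In the untreated arm it read 10.74 to 11.30 at 0 to 3 h, 7.29 to 9.82 at 5 to 48 h and 6.36 to 10.44 at 96 to 288 h, with the low late values at 96 and 144 h and the high one at 288 h. At 5 to 48 h it was 9.67-fold lower than at 0 to 3 h in prieurianin, 10.6-fold lower in DMSO and 8.56-fold lower in untreated cells (adjusted p between 0.000295 and 0.000902). The late change in prieurianin, -1.51 ± 0.73 log2, missed the threshold (adjusted p = 0.11) and was -0.89 without 192 h. In DMSO it was -2.65 ± 0.73 (0.00356), and in untreated cells -2.86 ± 0.73 (7.25-fold lower, 0.00155). A dimmer Col8a1 probe gave -1.54 in prieurianin, -2.55 in DMSO and -2.43 in untreated cells.

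Other genes that fell late included Col17a1, a chain of epithelial hemidesmosomes, in all arms (-0.58 ± 0.17 in prieurianin, -0.96 ± 0.17 in DMSO and -0.90 ± 0.17 in untreated cells). In DMSO Col23a1, a transmembrane chain, fell by 0.48 ± 0.14, and in untreated cells Col16a1, a FACIT chain, fell by 0.67 ± 0.20 and Col7a1 by 1.04 ± 0.37. The Col23a1 probe used here changed by -0.29 in prieurianin and -0.25 in untreated cells. Another Col23a1 probe of similar brightness changed by -1.17 in prieurianin, -1.10 in DMSO and -1.18 in untreated cells. Col7a1 was no longer called without 96 h (-1.001) or 288 h (-0.98). Its change was 0.07 in prieurianin and -0.82 in DMSO. The prieurianin array at 3 h read 5.56 for Col7a1, while the median of that arm at 0 to 3 h was 9.06. A dimmer Col7a1 probe gave -0.54 in prieurianin, -0.61 in DMSO and -0.97 in untreated cells.

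**Figure D1:**
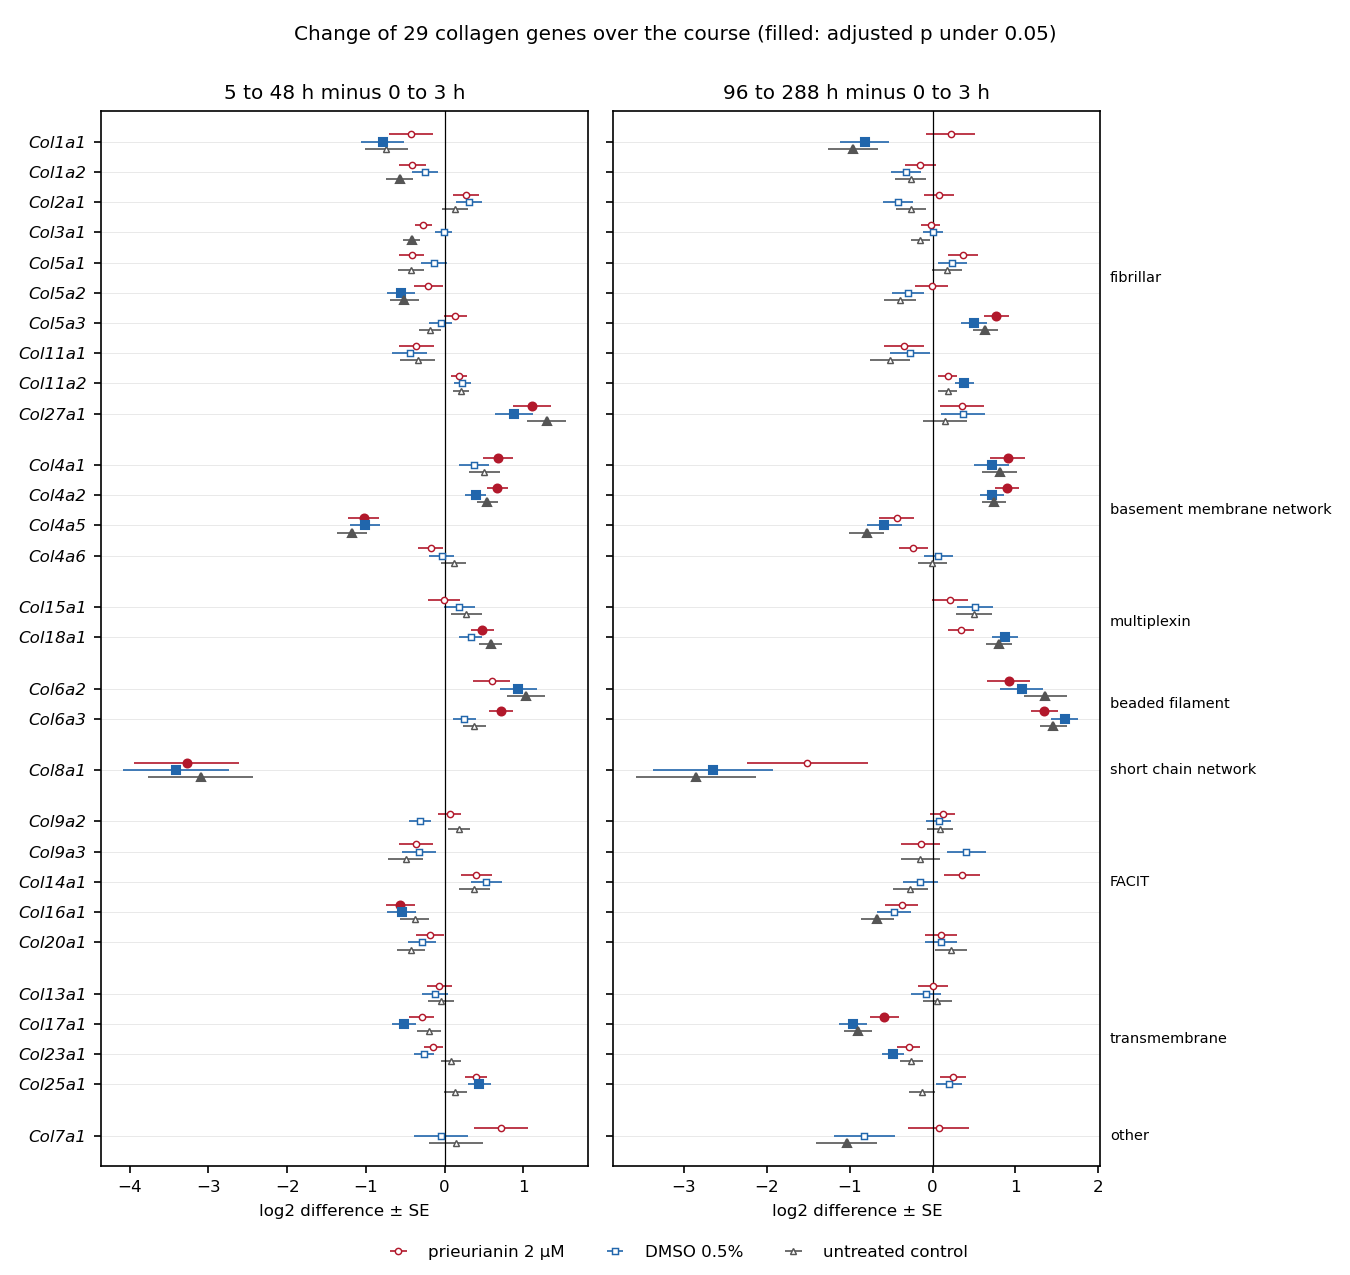
Change of each of the 29 measured collagen genes at 5 to 48 h (left) and 96 to 288 h (right) against 0 to 3 h, as log2 difference with its standard error (horizontal axis), for prieurianin (circles), DMSO (squares) and untreated cells (triangles). Filled symbols passed the adjusted p of 0.05. Col6a3, Col6a2, Col4a1 and Col4a2 lie to the right of 0 in every arm in the right panel, and Col8a1 lies farthest to the left.

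The middle window gave calls of its own. At 5 to 48 h 5 collagens rose and 3 fell in prieurianin (27.6%, background 14.8%), 4 rose and 6 fell in DMSO (34.5%, background 17.4%), and 4 rose and 5 fell in untreated cells (31%, background 16.3%). By direction the background was 7.54% higher and 7.24% lower in prieurianin, 7.87% higher and 9.48% lower in DMSO, and 8.3% higher and 8.01% lower in untreated cells. Col27a1, a fibrillar chain of cartilage, rose in every arm at 5 to 48 h, by 1.11 ± 0.24 log2 in prieurianin, 0.88 ± 0.24 in DMSO and 1.29 ± 0.24 in untreated cells, and was called in none at 96 to 288 h. Col4a5 fell by 1.03 ± 0.19 in prieurianin, 1.01 ± 0.19 in DMSO and 1.17 ± 0.19 in untreated cells. Col4a2 rose by 0.67 ± 0.13 in prieurianin, 0.39 ± 0.13 in DMSO and 0.54 ± 0.13 in untreated cells. Col4a1 (0.67 ± 0.19) and Col6a3 (0.71 ± 0.15) passed in prieurianin alone, which does not show by itself that the arms differed. Col6a2 rose by 0.93 ± 0.24 in DMSO and 1.03 ± 0.24 in untreated cells, while in prieurianin it had 0.60 ± 0.24 (adjusted p = 0.0848). Among fibrillar genes, Col1a1 had -0.43 ± 0.27 in prieurianin (0.311), fell by 0.78 ± 0.27 in DMSO (0.0395) and had -0.74 ± 0.27 in untreated cells (0.0544). Leaving out any of 8 times ended the Col1a1 call in DMSO (-0.80 to -0.71). Col5a2, a type V chain that helps start fibrils, fell by 0.55 ± 0.18 in DMSO and by 0.51 ± 0.18 in untreated cells. Col1a2, the partner chain of Col1a1, and Col3a1, the type III chain, fell in untreated cells by 0.57 ± 0.17 and 0.42 ± 0.11. The falls of Col5a2 and Col1a2 and the rise of Col4a2 in DMSO had adjusted p between 0.016 and 0.0427, and leaving out 1 of 13 times could end each of them (0.34 for Col4a2 without 0.25 h, -0.48 for Col5a2 in DMSO without 15 h, -0.43 for Col5a2 in untreated cells without 24 h, -0.49 for Col1a2 without 0 h). With median centring 4 collagens rose and 2 fell in untreated cells, and with no scaling 4 rose and 3 fell. In that arm the calls of Col1a2, Col3a1 and Col5a2 were lost under both (-0.33, -0.12 and -0.38 with median centring).

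Adipocyte markers accompanied the course: 8 of 8 rose late in each arm. Of all genes 15.3% rose in prieurianin, 16.5% in DMSO and 17% in untreated cells. The markers had median changes of 1.76 log2 in prieurianin, 3.20 in DMSO and 3.26 in untreated cells. The range of their summed intensity at 96 to 288 h was 54418 to 281074 in prieurianin, 166598 to 259683 in DMSO and 165569 to 253172 in untreated cells. In cultures measured as a whole, fewer cells of a type and less RNA per cell cannot be told apart. The part of these markers in the collagen changes was not tested.

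Prieurianin was compared with DMSO time by time. No collagen was called at 0.25 to 3 h, where limma called 0% of all genes. At unadjusted p under 0.05 there were 2 collagens and 300 of the 12792 genes (2.35%). The levels of Col5a1 and Col5a2 did not overlap between the arms there, 2 of 29 collagens, beside 128 of all genes (1%). Col5a1 read 12.76 to 13.04 in prieurianin and 12.58 to 12.75 in DMSO, a difference of 0.24 ± 0.13. Col5a2 read 13.82 to 13.95 in prieurianin and 13.65 to 13.81 in DMSO, a difference of 0.13 ± 0.11. Neither passed the threshold.

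At 5 to 48 h prieurianin cells had higher Col6a3, Col5a2, Col4a1 and Col4a2 than DMSO cells, and no collagen was lower by the threshold. The 4 genes are 13.8% of the collagens, beside 6.62% of all genes called higher and 11.1% called in either direction. Col6a3 read 14.58 to 15.89 in prieurianin (median 15.23) and 14.13 to 15.23 in DMSO (median 14.55), and was higher in prieurianin at 6 of 7 times by 0.64 ± 0.10 log2 (1.56-fold, adjusted p = 7.15e-05). Col5a2 read 13.33 to 14.17 (median 13.61) in prieurianin and 12.74 to 13.55 (median 13.24) in DMSO, and was higher at all 7 times by 0.49 ± 0.09 (adjusted p = 0.000784). The ranges of both arms overlapped for each gene although the arms were ordered at nearly every time.

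Col4a1 had a range of 14.64 to 15.50 in prieurianin (median 15.05) and of 14.21 to 15.08 in DMSO (median 14.79), a difference of 0.37 ± 0.11 (adjusted p = 0.0239). The corresponding range of Col4a2 was 15.46 to 15.99 (median 15.62) in prieurianin and 15.06 to 15.69 (median 15.46) in DMSO, a difference of 0.28 ± 0.09 (adjusted p = 0.0496). Both were higher at 6 of 7 times. These were the less secure calls: Col4a1 was lost on leaving out 9 h (0.33), 12 h (0.37), 15 h (0.32) or 36 h (0.35), and Col4a2 on leaving out any time but 48 h (0.22 to 0.30, highest adjusted p 0.169). The number called was then 2 without 9, 12, 15 or 36 h. Median centring gave 0.58 for Col4a1 (adjusted p = 0.0600) and 0.46 for Col4a2 (0.151). All 4 genes of the basement membrane network had a positive difference (median 0.20), and 6 of 10 fibrillar genes did (median 0.04), against a median of -0.01 for all genes.

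Not every probe of these genes told the same. Col5a2 has dimmer probes whose 5 to 48 h differences were 0.09 and 0.10, and whose 96 to 288 h differences were -0.26 and -0.61. Averaged over all its probes, Col5a2 was 0.22 higher at 5 to 48 h and did not pass. A dimmer Col6a3 probe gave 0.66 at 5 to 48 h and the dimmest gave -0.20. Which transcripts each probe detects was not analysed here.

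Other chains of the same classes did not pass at 5 to 48 h. Col6a2, which rose with Col6a3 over the course, had a difference of -0.37 ± 0.14 (adjusted p = 0.0811) and was higher with prieurianin at 1 of 7 times. It passed when 192 h was left out of the fit (0.0227). Col1a1 had 0.32 ± 0.16 (0.192), Col1a2 -0.28 ± 0.11 (0.12), Col8a1 0.05 ± 0.35 and Col18a1 -0.01 ± 0.11. The mean of Col8a1 covers a change of sign. Prieurianin was below DMSO at every time from 5 to 15 h (5.37 against 7.29 at 15 h). From 24 to 48 h it was above DMSO at every time (7.57 against 6.40 at 24 h, 8.72 against 7.44 at 48 h). Smooth muscle markers moved in this window too: 3 of 6 were higher with prieurianin, beside 6.62% of all genes. The summed intensity of these markers was 66155 to 69339 in prieurianin against 8614 to 45263 in DMSO. Most of that sum was Acta2, smooth muscle actin, at 63424 to 65488 in prieurianin and 6856 to 43305 in DMSO. Acta2 was higher by 2.03 ± 0.33 log2, with 6 of the 7 prieurianin arrays saturated, and Pparg, the regulator of fat cell genes, lower by 0.58 ± 0.18. Their part in the collagen differences was not tested.

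**Figure D2:**
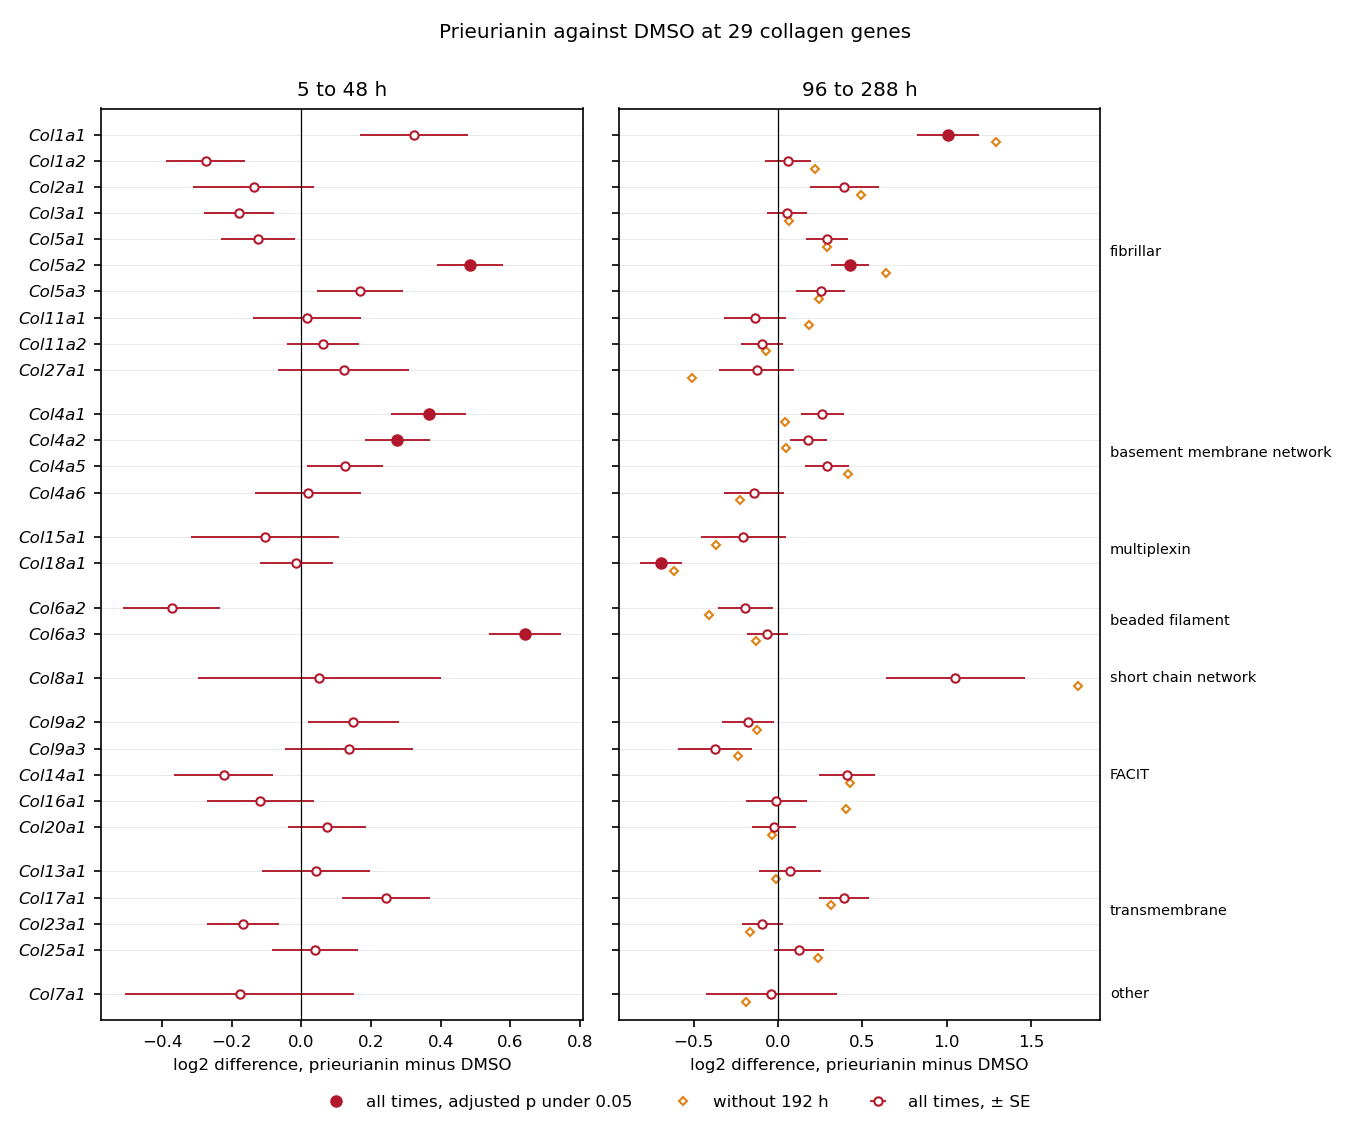
Difference between prieurianin and DMSO in log2 units for the 29 measured collagen genes at 5 to 48 h (left) and 96 to 288 h (right), matched by time, with standard errors (circles). Filled circles passed the adjusted p of 0.05, and diamonds give the late difference without 192 h. Col6a3, Col5a2, Col4a1 and Col4a2 are filled on the left, Col1a1, Col5a2 and Col18a1 on the right, and Col8a1 moves most when 192 h is left out.

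Late in the course prieurianin cells had more Col1a1 message, of type I fibrils, and less Col18a1 than DMSO cells. Col5a2, of type V fibrils, was called higher by its brightest probe, while its 2 dimmer probes went the other way (-0.26 and -0.61). These genes are 3 of 29 collagens (10.3%) beside 16.7% of all genes (7.32% higher and 9.36% lower). Without 192 h there were 5 higher and 3 lower, beside a background of 25.8%. The count was 2 without 240 h or 288 h, and 5 without 144 h. With median centring 1 collagen was higher and 1 lower.

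Col1a1 measured 13.59, 13.46, 13.04, 14.72 and 14.91 in prieurianin at 96, 144, 192, 240 and 288 h, against 12.17, 11.80, 13.18, 13.57 and 13.97 in DMSO and 12.66, 12.40, 12.74, 13.92 and 14.22 in untreated cells. Prieurianin was above DMSO at every late time but 192 h, and all arms had their highest late value at 288 h. The difference was 1.01 ± 0.18 log2 (2.01-fold, adjusted p = 0.000295), and 1.29 without 192 h (adjusted p = 1.56e-06). By time it was 0.15, 0.23, -0.27, -0.01, 0.55, 0.96 and 0.65 at 5, 9, 12, 15, 24, 36 and 48 h, so that prieurianin was above DMSO at every sampled time after 15 h except 192 h.

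Col5a2 measured 13.65, 13.63, 13.13, 14.37 and 14.55 in prieurianin, against 13.04, 12.97, 13.56, 13.67 and 13.96 in DMSO and 13.18, 12.88, 13.04, 13.51 and 14.11 in untreated cells. The pattern matched that of Col1a1: higher with prieurianin at 4 of 5 times, lower at 192 h. The difference was 0.43 ± 0.11 (adjusted p = 0.00804), 0.64 without 192 h (4.28e-06), 0.36 without 240 h (0.0694) and 0.39 without 288 h (0.0628). With all Col5a2 probes averaged it was -0.15, the opposite sign.

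Col18a1 measured 12.26, 12.23, 11.81, 12.45 and 12.19 in prieurianin, against 12.85, 12.65, 12.80, 13.27 and 12.82 in DMSO and 12.86, 12.64, 12.74, 12.77 and 12.74 in untreated cells. Every prieurianin value lay below every DMSO and untreated value, which held for no other collagen, while 2.27% of all genes did not overlap with DMSO and 4.54% with untreated cells, in either direction. The difference from DMSO was -0.69 ± 0.12 (1.62-fold lower, adjusted p = 0.000246), and -0.62 without 192 h (0.00101). It kept its call whichever late time was left out, with values between -0.76 and -0.62. By time it was 0.42, 0.16, 0.18 and -0.68 at 15, 24, 36 and 48 h. From 0 to 12 h Col18a1 also read lower in prieurianin than in DMSO at every time. It was 11.84 against 12.02 at 0 h and 11.81 against 11.91 at 5 h.

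Col8a1 measured 8.64, 8.87, 7.13, 11.37 and 12.09 in prieurianin, against 6.64, 6.84, 9.00, 9.87 and 10.48 in DMSO and 6.66, 6.36, 7.62, 9.33 and 10.44 in untreated cells. Prieurianin was higher than DMSO by 1.497 to 2.03 at 4 times and lower by 1.87 at 192 h. With all times the difference, 1.05 ± 0.41, missed the threshold (adjusted p = 0.0789), whereas without 192 h it was 1.78 (0.000448). A dimmer probe gave 0.76 with all times.

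The other type I chain and the type III chain did not pass. Col1a2 measured 15.46, 15.69, 15.16, 15.78 and 15.998 in prieurianin, against 15.49, 15.13, 15.74, 15.54 and 15.90 in DMSO and 15.38, 14.82, 15.07, 15.47 and 15.78 in untreated cells, a difference from DMSO of 0.06 ± 0.13. Col3a1 ran from 15.89 to 15.999 in prieurianin, 15.74 to 15.999 in DMSO and 15.41 to 15.999 in untreated cells, at or near the ceiling throughout. The arms overlapped for both genes, and the ceiling limits what could be seen.

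Col5a1, the partner of Col5a2 in type V, measured 12.77, 12.80, 13.29, 13.60 and 13.74 in prieurianin, against 12.63, 12.93, 13.01, 13.11 and 13.08 in DMSO and 13.18, 12.91, 13.003, 13.24 and 13.03 in untreated cells. Its highest values were those of prieurianin from 192 h on. The difference from DMSO, 0.29 ± 0.13, missed the threshold (adjusted p = 0.11). Of the 10 fibrillar genes 7 had a positive late difference, with a median of 0.16, and 0.23 without 192 h, against 0.02 for all genes.

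Col4a1 measured 15.35, 15.43, 15.61, 15.18 and 14.93 in prieurianin, against 15.43, 15.55, 14.46, 15.05 and 14.70 in DMSO and 15.58, 15.61, 15.03, 15.11 and 14.76 in untreated cells. Col4a2 measured 15.92, 15.96, 15.99, 15.85 and 15.73 in prieurianin, against 15.91, 15.98, 15.28, 15.78 and 15.61 in DMSO and 15.90, 15.998, 15.73, 15.68 and 15.53 in untreated cells. The arms overlapped for both genes, and DMSO was lowest at 192 h. The late differences from DMSO, 0.26 ± 0.13 for Col4a1 and 0.18 ± 0.11 for Col4a2, missed the threshold (adjusted p = 0.16 and 0.29). The median of the 4 network genes was 0.22, and 0.04 without 192 h.

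Col6a2 measured 13.27, 13.13, 13.47, 12.10 and 12.25 in prieurianin, against 13.26, 12.95, 12.80, 13.07 and 13.10 in DMSO and 13.94, 13.55, 12.96, 13.27 and 13.35 in untreated cells. Prieurianin was lower than both other arms at 240 and 288 h. The difference from DMSO was -0.19 ± 0.16, and -0.41 without 192 h (adjusted p = 0.0401). Col6a3 ran from 15.73 to 15.98 in prieurianin, 15.78 to 15.999 in DMSO and 15.96 to 15.999 in untreated cells. Its late difference from DMSO was -0.07 ± 0.12, which the ceiling in DMSO and in prieurianin limits. A dimmer Col6a3 probe, not at the ceiling, gave -0.58 at 96 to 288 h. Col15a1 ran from 6.84 to 7.74 in prieurianin, 7.24 to 7.63 in DMSO and 7.44 to 7.94 in untreated cells, a difference from DMSO of -0.21 ± 0.25. The genes that passed only without 192 h were, beside Col8a1 and Col6a2, Col4a5 (0.41, adjusted p = 0.0238), Col16a1 (0.40, 0.0143) and Col27a1 (-0.51, 0.0393).

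**Figure D3:**
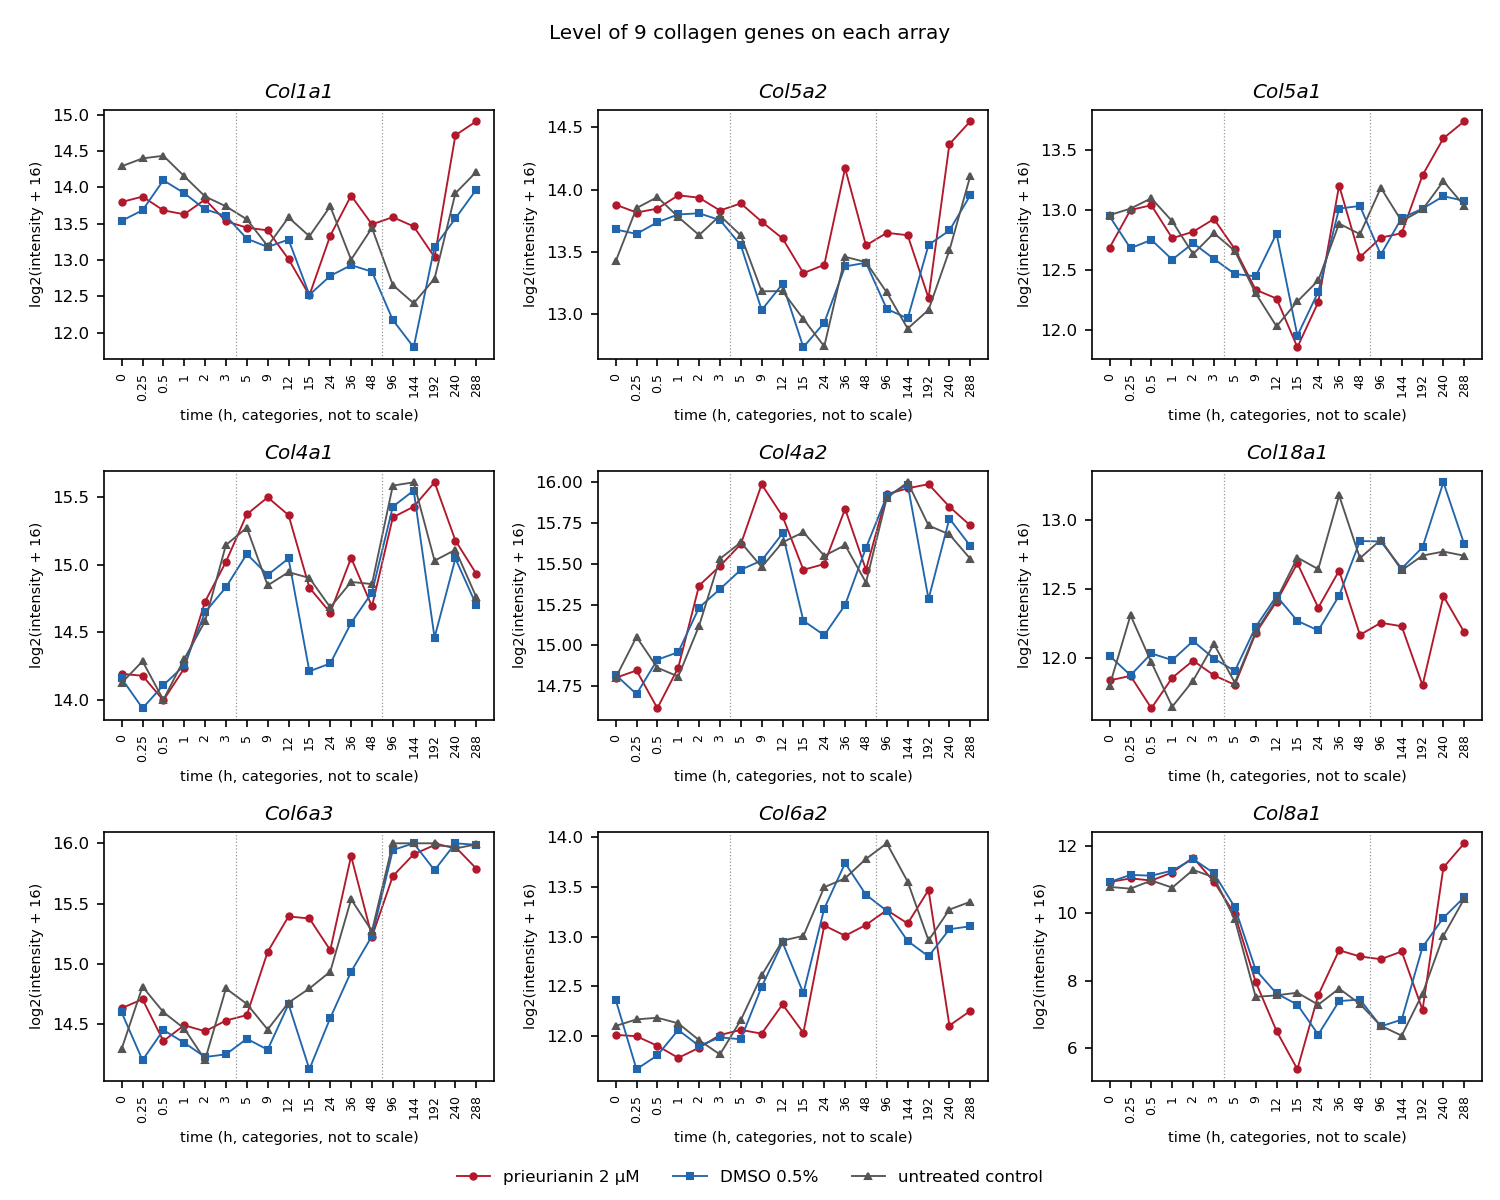
Levels of 9 collagen genes on the log2(intensity + 16) scale (vertical axis) against sampling time (horizontal axis, times evenly spaced in order), for prieurianin, DMSO and untreated cells, 1 array per point. Late prieurianin values of Col1a1, Col5a2 and Col8a1 lie above the other arms except at 192 h, and those of Col18a1 lie below them at every late time.

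Cell state differed between the same arrays. Of 8 adipocyte markers 7 were lower with prieurianin at 96 to 288 h (median -1.62 log2), beside 9.36% of all genes. Without 192 h 8 were lower (median -2.24), while 25.8% of all genes were called in either direction. Pparg was lower by 1.16 ± 0.21 (adjusted p = 0.000234) and Adipoq, the gene of adiponectin, by 2.72 ± 0.51 (0.000366). Of 6 smooth muscle markers 3 were higher (median 1.14), beside 7.32% of all genes, with Acta2 higher by at least 2.69 log2 (1.44e-05). The smooth muscle sum was 68900 to 70753 in prieurianin, 3623 to 27858 in DMSO and 4628 to 28619 in untreated cells. The probe of Acta2 was saturated on all 5 late prieurianin arrays, which holds their sum near a fixed value. Of the unsaturated markers, Tagln was higher by 3.42 ± 0.23 and Smtn by 2.27 ± 0.28, both at all 5 times. The preadipocyte marker sum overlapped between the arms (183331 to 248364 in prieurianin, 165601 to 252129 in DMSO and 179109 to 249923 in untreated cells). Their part in the collagen differences was not tested.

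Against the untreated control, which shares the prieurianin arrays with the comparison above, the late direction was the same for Col1a1, Col5a2 and Col18a1. At 96 to 288 h 4 collagens were higher and 3 lower with prieurianin, 24.1% beside a background of 22% (11.4% higher and 10.5% lower). Higher were Col8a1 (1.54 ± 0.41, 2.9-fold, adjusted p = 0.00694), Col1a1 (0.76 ± 0.18, 0.003), Col5a2 (0.52 ± 0.11, 0.000931) and Col4a5 (0.44 ± 0.13, 0.0129). Lower were Col6a2 (-0.57 ± 0.16, 0.0115), Col18a1 (-0.56 ± 0.12, 0.00129) and Col11a1, a minor fibrillar chain (-0.55 ± 0.18, 0.0305). Col1a1, Col5a2 and Col4a5 were higher at all 5 times, and Col8a1 at 4. Without 192 h there were 6 higher and 2 lower, beside a background of 28.5%. Col11a1 was then no longer called (-0.30, adjusted p = 0.179) and Col8a1 was at 2.04. Calls lost on leaving out other times were those of Col8a1 (144 h, 1.29), Col4a5 (96 h, 0.38, and 240 h, 0.37), Col6a2 (240 h, -0.42, and 288 h, -0.44) and Col11a1 (240 h, -0.52, and 288 h, -0.48). The number called was 4 without 240 h. Averaged over all its probes Col5a2 was at 0.02 (adjusted p = 0.927), and its call was also lost with median centring (0.53, 0.0560). Col4a5 was at 0.23 with no scaling (0.316).

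At 5 to 48 h against untreated cells, 4 collagens were higher with prieurianin and 3 lower, 24.1% beside a background of 28.5% (13% higher and 15.5% lower). With median centring, and likewise with no scaling, 1 was higher and 4 were lower. Higher were Col9a3, a FACIT chain (0.65 ± 0.18, adjusted p = 0.00818), Col5a2 (0.44 ± 0.09, 0.000595), Col1a2 (0.36 ± 0.11, 0.0167) and Col6a3 (0.33 ± 0.10, 0.0148). Lower were Col11a1 (-0.73 ± 0.16, 0.00058), Col6a2 (-0.56 ± 0.14, 0.00252) and Col23a1 (-0.35 ± 0.10, 0.00971). Col5a2, Col1a2 and Col9a3 were higher at all 7 times. The call of Col5a2 was lost with median centring (0.30, adjusted p = 0.166) and with no scaling (0.29, 0.0605), as were those of Col1a2 and Col6a3 (0.25 to 0.29). The calls of Col1a2 (0.32 without 5 h or 36 h), Col6a3 (0.28 without 9 h, 0.27 without 12 h), Col9a3 (0.49 without 9 h) and Col23a1 (-0.26 without 36 h) were lost when those times were left out. With all probes averaged, Col6a3 turned to -0.12. At 0.25 to 3 h Col11a1 was lower (-0.73 ± 0.18, 0.013), the only collagen called there (3.45%, background 5.93%, of which 1.77% lower). It read 8.18 to 8.56 in prieurianin and 8.60 to 9.35 in untreated cells, without overlap (beside 4.22% of all genes), and was lost without 0.25 h (-0.62) or 3 h (-0.68). At 0 h, which is outside the fit, Col11a1 differed from untreated cells by -0.65 in prieurianin and by -1.17 in DMSO.

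DMSO itself differed from the untreated control at 5 to 48 h, with 3 collagens higher and 5 lower, 27.6% beside a background of 20.3% (9.47% higher and 10.8% lower). With median centring 1 was higher and 7 were lower. Higher were Col1a2 (0.63 ± 0.11, adjusted p = 0.000117), Col9a3 (0.51 ± 0.18, 0.0473) and Col3a1 (0.39 ± 0.10, 0.00555). Lower were Col11a1 (-0.75 ± 0.16, 0.000689), Col27a1 (-0.60 ± 0.19, 0.0214), Col1a1 (-0.43 ± 0.16, 0.0457), Col17a1 (-0.39 ± 0.13, 0.0267) and Col6a3 (-0.31 ± 0.10, 0.0318). The type I chains differed in opposite directions with the vehicle: Col1a2 read 15.31 to 15.89 in DMSO and 14.51 to 15.33 in untreated cells, and Col1a1 read 12.52 to 13.29 in DMSO and 13.01 to 13.74 in untreated cells. Col1a2, Col3a1 and Col11a1 kept their calls whichever time was left out. Median centring ended those of Col1a2 (0.36, adjusted p = 0.124) and Col3a1 (0.17, 0.497), and no scaling ended that of Col3a1 (0.31, 0.0956). Col1a1 lost it without 5, 12, 15, 24 or 48 h (-0.46 to -0.35). Col9a3 lost its call without any time but 24 h, Col6a3 without 15, 24 or 36 h, Col27a1 without 5, 24 or 36 h, and Col17a1 without 5, 15, 36 or 48 h. The number called was 4 without 5 h. At 0 h Col1a1 differed by -0.75 between DMSO and untreated cells. With all probes averaged Col3a1 turned to -0.0702.

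At 0.25 to 3 h no collagen was called between DMSO and untreated cells by limma (background 3.54%), with 7 at unadjusted p under 0.05, beside 14.4% of all genes. At 96 to 288 h only Col9a3 was called, higher by 0.90 ± 0.22 (adjusted p = 0.0159), 3.45% beside a background of 3.65% (3.14% higher). It was lost without 96 h (0.83), 144 h (0.87) or 192 h (0.76). Col1a1, Col5a2 and Col18a1 were not called between vehicle and untreated cells late, with differences of -0.25 ± 0.18 for Col1a1 and 0.10 ± 0.11 for Col5a2.

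The change over the course was also compared between arms. No collagen differed between prieurianin and DMSO in its late change over 0 to 3 h (background 0.336%), and none between prieurianin and untreated cells (background 0.594%), by limma in a fit without a time term. At unadjusted p under 0.05 there were 2 collagens against DMSO (9.19% of all genes) and 4 against untreated cells (11.4%). The smallest adjusted p values were 0.386 and 0.216, both those of Col1a1, whose difference in change was 1.04 ± 0.42 log2 against DMSO and 1.18 ± 0.42 against untreated cells. Without 192 h these were 1.33 (adjusted p = 0.0794) and 1.30 (0.0838). Col18a1 had -0.53 ± 0.22 against DMSO and -0.46 ± 0.22 against untreated cells, and Col8a1 1.14 ± 1.03 and 1.35 ± 1.03. With time as a random block Col1a1 passed against untreated cells (adjusted p = 0.0210) and not against DMSO (0.0616). Without the prieurianin array at 192 h alone, an alternative added after seeing the data, it was 1.41 against untreated cells (0.0376) and 1.26 against DMSO (0.0779). The result for Col1a1 therefore depended on these choices. All 10 fibrillar genes had a positive difference in change against untreated cells (median 0.18), and 6 of 10 against DMSO (median 0.15). These comparisons share the prieurianin arrays.

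As class means, the 10 fibrillar genes stood 0.14 ± 0.23 above their 0 to 3 h level at 96 to 288 h in prieurianin (SD over 5 arrays), at -0.06 ± 0.11 in DMSO and at -0.14 ± 0.20 in untreated cells. The 4 basement membrane network genes stood 0.28 ± 0.07 above it in prieurianin, 0.23 ± 0.13 in DMSO and 0.19 ± 0.04 in untreated cells. Matched by time, the fibrillar change in prieurianin was above that in DMSO at 4 of 5 late times (-0.08 to 0.43) and above that in untreated cells at 5 of 5 (0.20 to 0.35). The network change was above DMSO at 3 and above untreated cells at 4. These class differences were not tested.

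**Figure D4:**
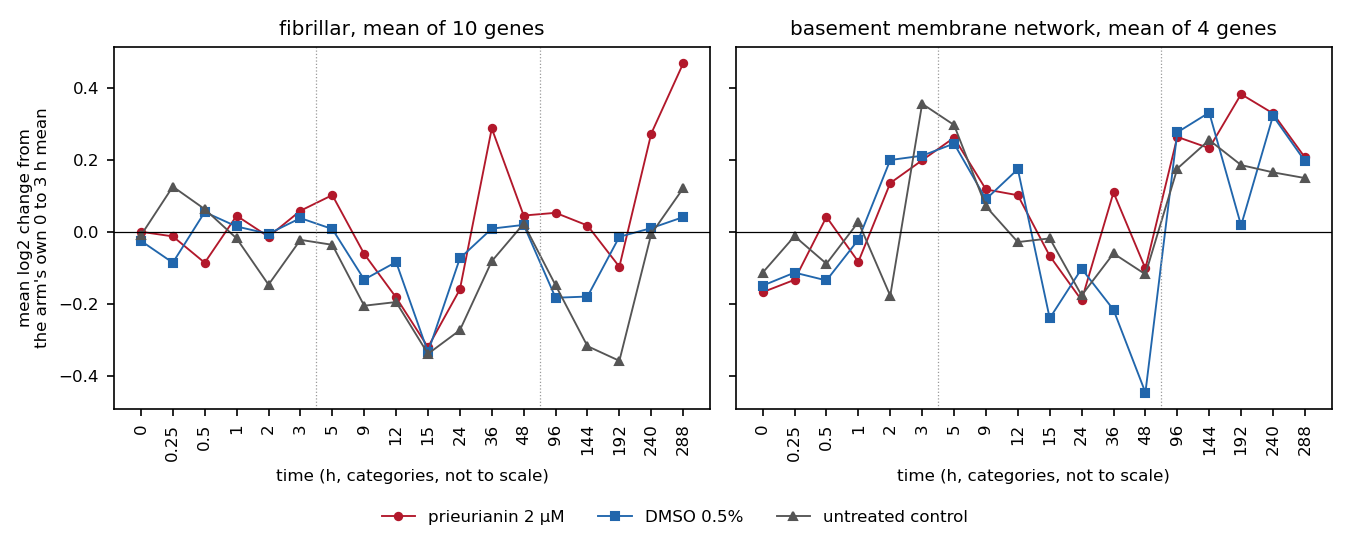
Mean log2 change from the 0 to 3 h level of the arm (vertical axis) for the 10 fibrillar and the 4 basement membrane network genes against sampling time (horizontal axis), 1 point per array, in prieurianin, DMSO and untreated cells. The fibrillar mean has its highest value, 0.469, in prieurianin at 288 h, and the network mean ends above 0 in every arm.

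Genes that process, accompany or sense collagens were summarised by their roles. Of 20 measured chain modification and folding genes, 9 rose and 2 fell late in prieurianin, 7 rose and 3 fell in DMSO, and 7 rose and 4 fell in untreated cells. These are 55% of the list in prieurianin, 50% in DMSO and 55% in untreated cells, beside 30.4%, 32.6% and 34.3% of all genes in those arms. Plod1, a lysyl hydroxylase of collagen chains, rose by 1.59 ± 0.17 log2 in prieurianin, 2.11 ± 0.17 in DMSO and 2.04 ± 0.17 in untreated cells. P4ha1, a prolyl hydroxylase subunit, rose by 1.60 ± 0.23 in prieurianin, 1.66 ± 0.23 in DMSO and 1.47 ± 0.23 in untreated cells. Of 14 basement membrane partners 10 rose in prieurianin, 8 in DMSO and 7 in untreated cells, and none fell, beside 15.3%, 16.5% and 17% of all genes that rose in those arms. Nid2, a nidogen that links laminin to the type IV network, rose by 2.12 ± 0.54 in prieurianin, 2.39 ± 0.54 in DMSO and 2.48 ± 0.54 in untreated cells.

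Between prieurianin and DMSO at 96 to 288 h, cleavage and cross-linking genes had 2 higher and none lower of 8 (25%, beside 16.7% of all genes), Adamts2 and Bmp1, the proteinases that trim the N- and C-terminal propeptides of fibrillar procollagen. Adamts2 was higher by 0.75 ± 0.12 (adjusted p = 5.13e-05) at all 5 times and Bmp1 by 0.80 ± 0.21 (0.00853) at 4. Among chain modification genes Tram2, known for its part in type I collagen synthesis, was higher by 1.37 ± 0.31 (0.0026) and Plod1 lower by 0.53 ± 0.11 (0.000743). Without 192 h that list of 20 had 10 higher and 1 lower, in place of 1 and 1, while the share of all genes called was 25.8% in place of 16.7%. Basement membrane partners, the list counted over the course above, had 2 higher, beside 7.32% of all genes higher and 16.7% in either direction. They were Lama5, a laminin chain (0.91 ± 0.23, 0.00655), and Pxdn, the peroxidase that cross-links type IV collagen (0.34 ± 0.11, 0.0333). Without 192 h Pxdn was at 0.19 and was not called.

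Collagen receptors had 3 higher and 1 lower of 8 measured (50%, beside 16.7% of all genes, with 7.32% higher and 9.36% lower). Itgb1 and Itga1, the chains of a collagen-binding integrin, were higher by 1.17 ± 0.14 (adjusted p = 7.58e-07) and 0.61 ± 0.11 (0.000354) at all 5 times. They were higher at 5 to 48 h too, by 0.59 ± 0.12 and 0.39 ± 0.10 at all 7 times. Their change over the course exceeded that of DMSO (0.99 ± 0.22, adjusted p = 0.0186, for Itgb1 and 0.76 ± 0.16, 0.0127, for Itga1), a test that no collagen passed. Ddr2, a receptor kinase for fibrillar collagen, was higher by 0.59 ± 0.16 (0.0122), and Ddr1, its relative, lower by 0.49 ± 0.14 (0.0116), which was not called without 192 h (-0.29). Of 9 fibril surface genes Fn1, fibronectin, was higher (0.42 ± 0.15, 0.0437) and Tnxb, tenascin X, lower (-0.69 ± 0.23, 0.0339). These stand beside the same 7.32% of all genes higher and 9.36% lower. At 5 to 48 h the strongest difference in these lists was Loxl2, a cross-linking lysyl oxidase, higher by 1.72 ± 0.31 (0.000325) at all 7 times. P4ha2 (0.74 ± 0.20) and Prelp (0.79 ± 0.21) were higher there and Nid2 (-0.90 ± 0.22) lower.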

How the data were processed

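The deposited values were linear probe intensities of 1-colour Mouse OneArray (Phalanx) arrays, judged from the values because no header or label names the unit. They ran from -83 to 65497, with 0.466% below 0. Per the labels' protocols, column-purified total RNA was amplified and coupled to Cy5; the scanner, any background subtraction and any scaling by the authors are not given in the sources used here. Quantile normalisation between arrays came first. Negative values were then raised to 0 and the values expressed as log2(value + 16), which understates changes of dim genes. These log2 values were computed here from the deposited intensities. The number of arrays limits the precision.

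Old symbols were replaced with the help of RefSeq gene names (GRCm38.p6): 17558 were current, 3410 were updated and 52 stayed as annotated. Each gene was tested through its brightest probe. Linear fits with moderated statistics were made across 12792 genes in limma 3.58.1 (R 4.3.3), with Benjamini-Hochberg adjustment over all of them and a threshold of 0.05, for 17 comparisons. Differences between arms were fitted with time as a fixed term (28 residual degrees of freedom), leaving out 0 h. Changes over the course were fitted with a mean per arm and window (45 residual degrees of freedom). Time is the number that the arms share. Deviations of same-time arrays from their arm and window mean correlated with a median r of 0.37 over 51 pairs (above 0.1 in 42). The term was therefore kept. Over 246 pairs of different times the median was -0.10, which is no separate support. Deviations from a window mean cancel out over its times, which pulls such pairs to negative values. The fit was tested on simulated data.

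Any collagen past the threshold may be named, with at most 8 per class and direction. Values per array are given for chains of types I, III, IV, V, VI, VIII, XV and XVIII. From the other lists up to 4 called genes per direction are named. The members, lists and tests were chosen with earlier results of these data known. Alternatives were median centring, no scaling, pseudocounts of 1 and 64, no filter, the mean of all probes, no time term, time as a random term, 2 arms alone, shorter windows and leaving out each time or the prieurianin array at 192 h.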

Additional observations from a re-analysis of the deposited data

Results flagged for a closer look

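Of 25 groups of 4 to 10 values examined, 2 held a value far from the others, while chance alone gives about 5% of groups. The mean change of the 10 fibrillar genes in DMSO at 5 to 48 h was lowest at 15 h (-0.333), with a gap to the next value of 0.571 of the whole range. The difference of Col5a2 between prieurianin and DMSO was -0.43 at 192 h, while it was 0.61, 0.67, 0.69 and 0.59 at 96, 144, 240 and 288 h, a gap of 0.911 of the range. That time is the one at which the prieurianin array had the highest adipocyte marker sum of its arm (281074), and its part in the value was not tested.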

How the results depend on the processing

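Of 160 alternatives to the 17 counts of called collagens, 133 stayed within 1.5 times the count and 27 did not; where a cause is not given, it was not tested. Without the time term, that is with no replicate block, the counts became 1 for prieurianin against DMSO at 5 to 48 h and 1 at 96 to 288 h. Against untreated cells they became 0, 3 and 1 for prieurianin and, at 5 to 48 and 96 to 288 h, 3 and 0 for DMSO. With time as a random replicate block they were 2 (prieurianin against DMSO, 5 to 48 h), 4 (against untreated, late) and 1 (difference in change against untreated). Time is shared by the arms, so the block is part of the design. Median centring gave 2, 4 and 5 for prieurianin against DMSO at 5 to 48 h, against untreated late, and for its own middle change. Values with no scaling gave 2 for prieurianin against DMSO at 5 to 48 h and 5 for the middle change in DMSO. Comparing 2 arms alone gave 2 (prieurianin against DMSO, 5 to 48 h) and, at 0.25 to 3 h, 0 for prieurianin and 1 for DMSO against untreated. Of the split windows, 24 to 48 h alone gave 0 against DMSO, 2 against untreated and 4 for DMSO against untreated, and 5 to 15 h alone 2 for the last; fewer arrays enter these. The mean of all probes gave 3 at 0.25 to 3 h for both prieurianin and DMSO against untreated, and turned Col5a2 (prieurianin minus DMSO, late, -0.15), Col6a3 (prieurianin minus untreated, 5 to 48 h, -0.12) and Col3a1 (DMSO minus untreated, 5 to 48 h, -0.0702). An alternative added after seeing the data, without the prieurianin array at 192 h alone, gave 7 (prieurianin against DMSO, late), 1 (DMSO against untreated, 0.25 to 3 h) and 1 (difference in change against untreated). No scaling moved the median of all genes by over 0.1 in 8 comparisons (-0.17 to -0.10 log2), and median centring in 1 (-0.15).

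Leaving out each time in turn, counts ran 0 to 0, 2 to 4 and 2 to 8 for prieurianin against DMSO at 0.25 to 3, 5 to 48 and 96 to 288 h, 0 to 2, 5 to 8 and 4 to 8 for prieurianin against untreated cells, and 0 to 1, 4 to 7 and 0 to 1 for DMSO against untreated cells. Changes at 5 to 48 and 96 to 288 h gave 6 to 11 and 6 to 8 in prieurianin, 5 to 12 and 10 to 13 in DMSO, and 7 to 10 and 11 to 13 in untreated cells; both differences in change stayed at 0. Of the 7 collagen differences called between prieurianin and DMSO, 54 of 78 alternatives kept the call, 23 lost it and 1 reversed. For the 24 called in other comparisons of arms, 204 of 270 kept it, 64 lost it and 2 reversed. For the 57 changes over the course, 433 of 456 kept it and 23 lost it (runs of these last 2 groups were added after seeing the data). The median of a class moved by more than the spread in 13 of 610 alternatives.

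Labels give 1 array per arm and time, so biological spread at a time is unknown. Saturation bounds Col3a1, Col6a3, Col1a2 and Col4a2 from above, and the dimmest measured members lie near background.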
